A study of Mus musculus with 33 samples.

Results

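The comparison covered the interval between day 2 and day 4 of a reprogramming course that began from mouse embryonic fibroblasts (MEFs). It set 2 day 4 libraries (replicates 1 and 3), from cells labelled GFP, against 2 day 2 libraries (replicates 1 and 2), from cells without that label, so 4 of the 33 samples of the series were used, chosen by their titles. All 4 samples came from secondary MEFs, fibroblasts that already carry inducible copies of the factors that the labels abbreviate as SKM (Sox2, Klf4 and, read here as Myc, M), kept in mouse embryonic stem cell medium with doxycycline, the drug that switches the factors on. The MEF course also held 2 libraries each at days 0, 8 and 12, the later pairs again GFP-labelled, and these entered the fit. The study describes its RNA samples as EGFP-positive populations, but the labels give no reporter for GFP in these cells and do not mark day 2 as GFP-positive. MEFs of another assay in the series are named OG2, a strain in which GFP follows Pou5f1 regulatory sequence, so Pou5f1 itself may be tied to the selection. The labels give neither the number of embryos nor whether replicates were separate inductions. The p-values and SEs below therefore measure only the spread between replicate libraries. That spread was pooled over all libraries of the fit, not the 4 compared alone. Per the labels' protocols, cultured cells were extracted with a column kit and sorted cells with TRIzol. Day, GFP selection and any difference of extraction therefore cannot be told apart.

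In reprogramming, fibroblasts are known to lose their mesenchymal programme and to take up an epithelial one early, before the endogenous pluripotency network becomes active. Epithelial cells hold one another through E-cadherin and tight junctions, while fibroblasts lay down collagen and fibronectin and carry contractile actin. The pluripotency network is a set of transcription factors, with Pou5f1 (Oct4) and Nanog among them, that maintain one another's transcription in embryonic stem cells. In bulk RNA, fewer cells of a type and less RNA per cell cannot be told apart.

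The 4 libraries held between 18444439 and 20102260 counts on Ensembl genes, a narrow range of depth. The 2 day 2 libraries differed more from each other (Pearson's r of 0.975 across genes on the log2 scale) than the 2 day 4 GFP libraries did (0.987). Transcripts of the mitochondrial genome summed to 31300 CPM, that is counts divided by the size of each library, in day 2 replicate 1 and 4487 in replicate 2, against 18450 and 23020 in day 4 GFP replicates 1 and 3. Of the genes called higher below, day 2 replicate 2 lay on the day 4 side of replicate 1 for 21.4%. The levels of the 3 factors, whose reads cannot be split into transgene and endogenous copies here, check the labels of induction. Sox2 stood at 650 and 863 CPM at day 2 and at 851 and 878 CPM at day 4 GFP, against 5.91 and 4.23 CPM at day 0. Klf4 stood at 1098 and 1067 CPM at day 2 and at 1256 and 1260 CPM at day 4 GFP. For Myc the values were 1579 and 1268 CPM at day 2 and 1552 and 1421 CPM at day 4 GFP. None of these 3 passed the test between the days, with log2 fold changes of 0.19 ± 0.25, 0.22 ± 0.23 and 0.06 ± 0.23 (SE), and all 3 signs turned under quantile normalization.

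Among the genes that rose between day 2 and day 4 GFP were epithelial junction genes, a few pluripotency factors, and genes of ribosomal proteins, the respiratory chain, glycolysis and cholesterol synthesis. Among those that fell were matrix genes, some regulators of the mesenchymal state and many zinc finger genes, the last a list chosen after values were seen. Of 49 tested ribosomal protein genes, 39 were called higher in edgeR but 1 under quantile normalization. In edgeR's quasi-likelihood test, 3360 of 14638 genes tested passed an adjusted p of 0.05, which is 23%. Of these, 1667 (11.4%) were higher and 1693 (11.6%) lower at day 4 GFP. The median log2 fold change over all genes tested was -0.01, close to 0. Leaving out 1 library changed these counts. They were 1307 higher and 1399 lower without day 2 replicate 1, 160 and 258 without day 2 replicate 2, 452 and 271 without day 4 GFP replicate 1, and 241 and 284 without day 4 GFP replicate 3. With all libraries and with each of the 4 left out in turn, 285 genes (1.95%) passed, 130 of them higher (0.888%) and 155 lower (1.06%). Against a minimum log2 fold change of 1 (edgeR's glmTreat), 408 genes (2.79%) passed, 205 higher (1.4%) and 203 lower (1.39%). A fit of the 4 libraries alone, which takes the spread from these only, called 2175 genes higher and 2176 lower. The groups did not overlap in 71.1% of all genes tested (35% higher and 36.1% lower at day 4 GFP). They did not overlap in any of the 1667 genes called higher or the 1693 called lower. Such a statement about a called gene below therefore adds nothing to its call. The authors' deposited table for the same days lists 209 genes higher and 160 lower at its adjusted p under 0.05. The authors' deposited table gives a p of exactly 1 to every gene with an absolute log2 fold change of at most 1. The smallest absolute log2 fold change it calls is 1.84. Of the 369 genes it calls, 365 were called here in the same direction. Both sets of calls come from the same experiment and the deposited test is stricter, so this overlap is no independent support. Most of the 3360 genes called here, Cdkn1a, Krt8 and Esrrb among them, were not called there.

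**Figure D1:**
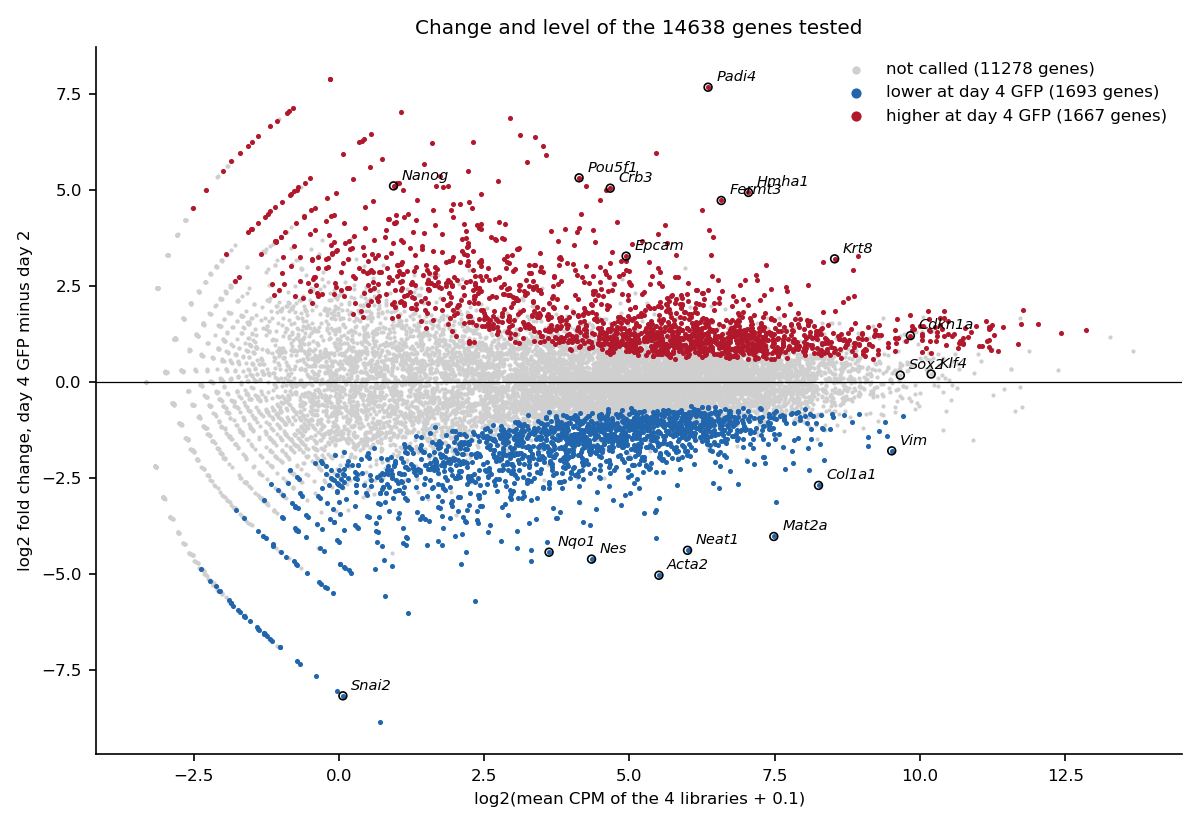
Each point is one of the 14638 genes tested, with log2 of its mean CPM over the 4 libraries (plus 0.1) on the x axis and its log2 fold change, day 4 GFP minus day 2, on the y axis. Red points (1667) were called higher and blue points (1693) lower, and the outlined genes are named in the text.

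Pou5f1 and Nanog, the central factors of the pluripotency network, rose from near the limit of detection to low levels. Pou5f1 stood at 1.07 and 0.622 CPM at day 2 and at 15.7 and 52.5 CPM at day 4 GFP. Its log2 fold change was 5.33 ± 0.69 (SE), a 40.3-fold rise (edgeR adjusted p = 0.003435), and it passed with each library left out. Both day 4 GFP libraries remained far below the 227 and 281 CPM of day 8. Nanog was counted at 0.153 and 0.0445 CPM at day 2 and at 2.77 and 4.32 CPM at day 4 GFP, with a log2 fold change of 5.12 ± 0.51 (edgeR adjusted p = 0.00294). It held 3 and 1 counts in the day 2 libraries and 45 and 73 at day 4 GFP. With so few counts at day 2 its SE can understate counting error. At day 8 Nanog reached 75.4 and 105 CPM. Tfcp2l1, a factor of the naive pluripotent state, rose from 0.969 and 0.445 CPM to 12 and 13.4 CPM (log2 fold change 4.17 ± 0.51, edgeR adjusted p = 0.003024). Esrrb, an orphan nuclear receptor of the same network, rose from 0.204 and 0.0445 CPM to 1.04 and 1.95 CPM (3.58 ± 0.58, edgeR adjusted p = 0.006068), and did not pass without day 2 replicate 2. In all of these the day 4 GFP libraries lay above both day 2 libraries, as in every gene called higher. Esrrb held 4 and 1 counts in the day 2 libraries and 17 and 33 at day 4 GFP. As for Nanog, its SE can understate counting error.

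The Pou5f1 promoter is shown because Pou5f1, which the name of the factor set leaves out, had the largest log2 fold change of the 7 called pluripotency genes. RefSeq lists 2 starts for it on the plus strand of chromosome 17 (GRCm38.p6), and each window runs from 250 bases before to 50 bases after a start. Capitals mark a match to the letters CATTGTT on either strand, the core bound by Sox factors.
Pou5f1, chr17:35505782-35506081: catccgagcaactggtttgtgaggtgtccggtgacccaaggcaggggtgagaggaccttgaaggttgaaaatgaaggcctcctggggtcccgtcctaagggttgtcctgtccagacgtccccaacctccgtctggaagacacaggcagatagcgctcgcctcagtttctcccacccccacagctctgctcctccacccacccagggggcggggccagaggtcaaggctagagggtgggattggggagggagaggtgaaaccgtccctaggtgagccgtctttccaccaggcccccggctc
Pou5f1, chr17:35508557-35508856: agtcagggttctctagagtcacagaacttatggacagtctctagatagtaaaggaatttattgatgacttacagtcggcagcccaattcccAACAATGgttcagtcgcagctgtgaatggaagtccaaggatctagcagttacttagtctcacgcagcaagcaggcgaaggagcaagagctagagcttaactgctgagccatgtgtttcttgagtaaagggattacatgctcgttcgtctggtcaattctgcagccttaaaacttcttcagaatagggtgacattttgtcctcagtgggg
The first window held none of the 4 motifs searched, and the second held a Sox match 159 bases before its start. The 4 motifs were CACGTG (the E-box that Myc binds), CATTGTT, CCNCACCC (a Klf-type site) and TGANTCA (AP-1), each searched on both strands, and matches of different motifs could overlap. Among 13932 such windows of the 10865 tested genes that matched, 9.64% held the E-box, 1.92% the Sox, 20.7% the Klf and 5.43% the AP-1 letters. Among 1698 windows of genes called higher the shares were 10.2%, 1.24%, 22.3% and 6.71%, and among 1616 windows of genes called lower they were 11%, 2.04%, 18.3% and 5.07%. A match is a description of letters and not a bound site.

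Of 42 listed genes of the pluripotency network, 41 were tested, 7 were called higher (17.1%, against 11.4% of all genes) and 0 lower. The list's median log2 fold change was 1.32, or 0.64 when the 8 members at 0 counts in a group, or at 3 counts or fewer in both, were set to the bound that a floor of 3 counts allows. In a fit of the 4 libraries alone, 22 members were tested, 6 were higher and 2 lower, and the median was 0.67. In the fit of all MEF libraries the other called members were Utf1, Sall4 and Eras, all known from embryonic stem cells. Sall4 held 2 counts over both day 2 libraries and 36 at day 4 GFP, a ratio of 22.8 (95% exact interval 5.88 to 196, counting error only). Eras held 1 and 26 counts, a ratio of 33 (5.42 to 1350). Utf1 rose from 0.306 and 0.133 CPM to 1.54 and 1.72 CPM (log2 fold change 2.87 ± 0.58, edgeR adjusted p = 0.01304). Lin28a, an RNA-binding protein that blocks let-7 maturation, was already at 58.1 CPM in both day 2 libraries and stood at 76.3 and 115 CPM at day 4 GFP, which did not pass (0.72 ± 0.35, edgeR adjusted p = 0.1555). Fgf4, Dppa5a and Zfp42, which mark established stem cells, were at or below 0.184 CPM in all 4 libraries and stood between 3.96 and 13.4 CPM at day 8. The count of members called was 3 without day 2 replicate 2 and 4 without day 4 GFP replicate 3, and DESeq2 called 14 higher and 2 lower.

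**Figure D2:**
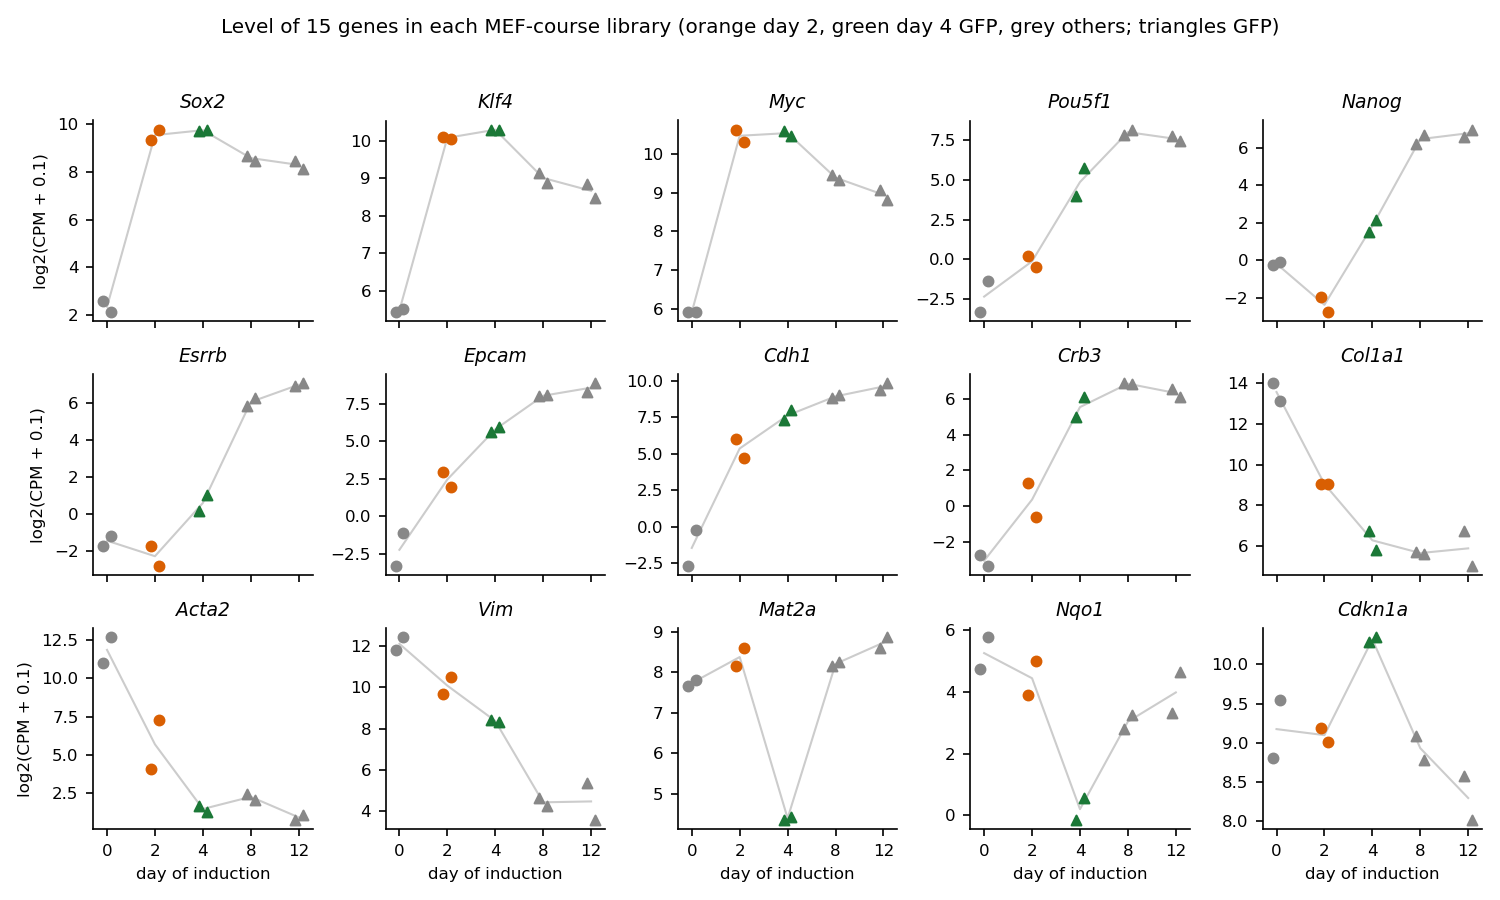
Each panel gives one gene's level, as log2 of CPM plus 0.1, in each of the 10 MEF-course libraries by day of induction (orange, day 2; green, day 4 GFP; grey, days 0, 8 and 12; triangles, GFP-labelled). Pou5f1, Nanog and Epcam lie higher in both green points than in both orange ones, Col1a1 and Vim lie lower, and Mat2a lies at 20.3 and 21.5 CPM at day 4 GFP only.

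Epithelial junction genes rose. Of 31 tested, 17 (54.8%, against 11.4% of all genes) rose and 0 fell, with a median log2 fold change of 1.86. Cdh1, which encodes E-cadherin, the adhesion molecule of epithelial contacts, rose from 64.1 and 26.1 CPM to 157 and 250 CPM (2.17 ± 0.56, edgeR adjusted p = 0.02435). With 1 library left out, it passed only without day 2 replicate 1. Epcam, an epithelial adhesion protein, rose 9.81-fold, from 7.55 and 3.82 CPM to 49.5 and 61.9 CPM (3.29 ± 0.49, edgeR adjusted p = 0.004809), and passed with each library left out. Crb3, an apical polarity protein, stood at 2.4 and 0.578 CPM at day 2 and at 31.7 and 66.8 CPM at day 4 GFP (5.06 ± 0.62, edgeR adjusted p = 0.003024). The tight junction claudin Cldn4 held 1 count over both day 2 libraries and 133 at day 4 GFP, a ratio of 169 (95% exact interval 29.8 to 6720). Cldn7, another claudin, rose from 0.153 and 0.222 CPM to 2.21 and 4.91 CPM (4.19 ± 0.53, edgeR adjusted p = 0.00334). Tjp3, a scaffold protein of tight junctions, rose from 1.17 and 0.0889 CPM to 6.46 and 13.6 CPM (4.01 ± 0.80, edgeR adjusted p = 0.01097). In each of these genes the day 4 GFP libraries lay above both day 2 libraries, as in every gene called higher. Day 4 GFP replicate 3 was the higher of its pair in each. The list's count was 8 without day 2 replicate 2 and 7 without day 4 GFP replicate 3.

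Among 18 tested epithelial transcription and splicing regulators, only Esrp1 was called (5.56% higher, against 11.4% of all genes). Esrp1, a splicing factor of epithelial cells, rose from 5.56 and 0.711 CPM to 15.9 and 38.2 CPM (3.12 ± 0.81, edgeR adjusted p = 0.02485). With day 2 replicate 2, day 4 GFP replicate 1 or day 4 GFP replicate 3 left out, none of these regulators passed, and DESeq2 called 4. Grhl2, a grainyhead factor of epithelia, stood at 0.765 and 0.533 CPM at day 2 and at 1.11 and 0.828 CPM at day 4 GFP and did not pass (0.57 ± 0.50, edgeR adjusted p = 0.4186). Keratins, the intermediate filaments of epithelia, moved both ways, with 6 of 17 tested higher (35.3%, against 11.4% of all genes) and 1 lower (5.88%, against 11.6%). Krt8, of simple epithelia, stood at 130 and 13.3 CPM at day 2 and at 357 and 980 CPM at day 4 GFP (3.22 ± 0.86, edgeR adjusted p = 0.02706). Krt14, of basal epidermal cells, rose from 25.6 and 19.9 CPM to 86.2 and 155 CPM (2.40 ± 0.44, edgeR adjusted p = 0.008498). Krt6a, a keratin of activated epidermis, fell from 25.4 and 140 CPM to 4.12 and 5.86 CPM (-4.05 ± 0.85, edgeR adjusted p = 0.01251), and stood at 305 and 149 CPM at day 8. No keratin passed without day 2 replicate 2, and 3 and 1 were called higher without day 4 GFP replicates 1 and 3, with none lower. Of 14 tested genes of keratinocyte differentiation 4 rose (28.6%, against 11.4% of all genes). Lgals7, an epidermal galectin, rose from 10.5 and 2.67 CPM to 101 and 190 CPM (4.48 ± 0.71, edgeR adjusted p = 0.005773). The list's count was 2 without day 2 replicate 2 and 1 without day 4 GFP replicate 3.

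Promoter windows of 3 junction genes that rose are shown from RefSeq (GRCm38.p6), 1 of 2 listed windows for Crb3, with matches to the E-box or AP-1 letters in capitals. The 3 genes were not drawn at random, and the Crb3 window shown is the one ranked first by number of matches.
Crb3, chr17:57061981-57062280, plus strand: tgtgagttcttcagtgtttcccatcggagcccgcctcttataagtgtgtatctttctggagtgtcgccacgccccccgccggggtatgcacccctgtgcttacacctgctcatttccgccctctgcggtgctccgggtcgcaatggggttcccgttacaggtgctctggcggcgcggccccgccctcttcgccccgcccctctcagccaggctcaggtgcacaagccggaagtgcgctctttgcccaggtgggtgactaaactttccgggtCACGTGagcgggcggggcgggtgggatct
Epcam, chr17:87635729-87636028, plus strand: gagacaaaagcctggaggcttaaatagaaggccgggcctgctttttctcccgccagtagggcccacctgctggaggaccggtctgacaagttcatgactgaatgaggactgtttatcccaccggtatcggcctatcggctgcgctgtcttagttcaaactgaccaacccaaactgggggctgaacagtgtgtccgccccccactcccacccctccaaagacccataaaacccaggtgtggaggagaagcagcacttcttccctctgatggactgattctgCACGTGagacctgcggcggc
Cldn4, chr5:134946885-134947184, minus strand: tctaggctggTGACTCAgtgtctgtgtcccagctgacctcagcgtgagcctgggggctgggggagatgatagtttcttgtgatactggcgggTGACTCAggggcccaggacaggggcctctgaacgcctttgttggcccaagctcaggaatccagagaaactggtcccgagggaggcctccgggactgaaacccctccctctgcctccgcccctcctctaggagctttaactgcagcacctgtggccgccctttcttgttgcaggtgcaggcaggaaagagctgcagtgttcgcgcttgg
The Crb3 and Epcam windows held 1 E-box each, starting 21 and 30 bases after the start. The Cldn4 window held 2 AP-1 matches, 240 and 158 bases before it. Over the 25 windows found for tested junction genes, 16% held the E-box, 28% the Klf and 20% the AP-1 letters, and none held the Sox letters. The shares over all windows searched were 9.64%, 20.7%, 5.43% and 1.92% in that order. Among 15 windows of the junction genes called higher, 3 held the E-box, 6 the Klf, 3 the AP-1 and 0 the Sox letters. The Klf letters were in none of the windows shown.

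Part of the matrix genes fell. Of 38 tested fibroblast matrix genes, 12 (31.6%, against 11.6% of all genes) were lower and 0 higher, with a median log2 fold change of -1.10. Col1a1, a chain of type I collagen, was already down from 15980 and 8924 CPM at day 0 to 527 and 530 CPM at day 2, and stood at 108 and 57 CPM at day 4 GFP (-2.68 ± 0.56, edgeR adjusted p = 0.01237). Fn1, which encodes fibronectin, fell from 244 and 445 CPM to 132 and 66.1 CPM (-1.79 ± 0.52, edgeR adjusted p = 0.03617). Sparc, a collagen-binding matricellular protein, fell from 198 and 462 CPM to 50.9 and 26.3 CPM (-3.10 ± 0.47, edgeR adjusted p = 0.004907) and passed with each library left out. Fbln5, an elastic fibre protein, fell from 10 and 21 CPM to 1.29 and 0.828 CPM (-3.87 ± 0.49, edgeR adjusted p = 0.00334), also with each library left out. Timp2, an inhibitor of matrix proteases, fell from 50.5 and 107 CPM to 10.1 and 5.21 CPM (-3.36 ± 0.69, edgeR adjusted p = 0.01175). The groups did not overlap in any of these 5, as in every gene called lower. Day 2 replicate 2 was the higher of its pair in all 5, with nearly equal values for Col1a1. The list's count of genes lower was 4 without day 2 replicate 2, 3 without day 4 GFP replicate 1 and 3 without day 4 GFP replicate 3. Its median was -0.37 without day 2 replicate 2, with 15 members positive and 23 negative, -1.50 without day 2 replicate 1, and -1.68 and -0.73 without day 4 GFP replicates 1 and 3.

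Of 24 tested regulators of the mesenchymal state 6 fell (25%, against 11.6% of all genes) and 0 rose. Snai2, a zinc finger repressor of epithelial genes, held 84 counts over the day 2 libraries and 0 in both day 4 GFP libraries. That makes it at least 22.1-fold lower against a floor of 3 counts over the group. Of the 84 counts, 10 were in day 2 replicate 1 and 74 in replicate 2. Snai2 was already down from 59.5 and 74.3 CPM at day 0 to 0.51 and 3.29 CPM at day 2. Ets1, an ETS factor of mesenchymal cells, fell from 19.4 and 17 CPM to 3.81 and 3.25 CPM (-2.36 ± 0.35, edgeR adjusted p = 0.004538) and was the only one of the 6 to pass with each library left out. Nfix and Runx1 fell by 1.98 ± 0.43 and by 1.49 ± 0.35 on the log2 scale (edgeR adjusted p = 0.01426 and 0.01743). Zeb2, a further repressor of Cdh1, stood at 14.2 and 24.2 CPM at day 2 and at 9.9 and 6.33 CPM at day 4 GFP and did not pass (-1.25 ± 0.47, edgeR adjusted p = 0.08136). The list's count was 3 without day 2 replicate 2, 2 without day 4 GFP replicate 1 and 1 without day 4 GFP replicate 3.

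Of 24 tested fibroblast surface and signalling genes 6 fell (25%, against 11.6% of all genes) and 0 rose. Vim, the intermediate filament of mesenchymal cells, fell 3.42-fold from 807 and 1457 CPM to 343 and 318 CPM (-1.78 ± 0.53, edgeR adjusted p = 0.03994) and went on to 24.5 and 18.6 CPM at day 8. Nes, the filament nestin, fell from 36 and 41.9 CPM to 2.03 and 1.18 CPM (-4.60 ± 0.75, edgeR adjusted p = 0.006089), and did not pass without day 4 GFP replicate 3. Thy1 and Cd44, surface markers used to follow fibroblast identity, did not pass, at log2 fold changes of 0.20 ± 0.84 and -0.15 ± 0.61. Thy1 was already down from 283.4 and 246.5 CPM at day 0 to 5.3 and 13.4 CPM at day 2. Cd44 stood at 225 and 1432 CPM at day 0 and at 235 and 293 CPM at day 2. The list's count was 2, 1 and 0 without day 2 replicate 2, day 4 GFP replicate 1 and day 4 GFP replicate 3. Among 21 contractile genes and targets of serum response factor, 4 fell (19%, against 11.6% of all genes) and 1 rose (4.76%, against 11.4%). The list summed to 5179 and 5774 CPM at day 2 and to 5253 and 5443 CPM at day 4 GFP. Acta2, smooth muscle actin, stood at 16.8 and 160 CPM at day 2 and at 3.13 and 2.31 CPM at day 4 GFP (-5.02 ± 0.98, edgeR adjusted p = 0.01026). With any library other than day 2 replicate 1 left out, none of the contractile genes passed, Acta2 included, and its log2 fold change was -2.63 without day 2 replicate 2.

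**Figure D3:**
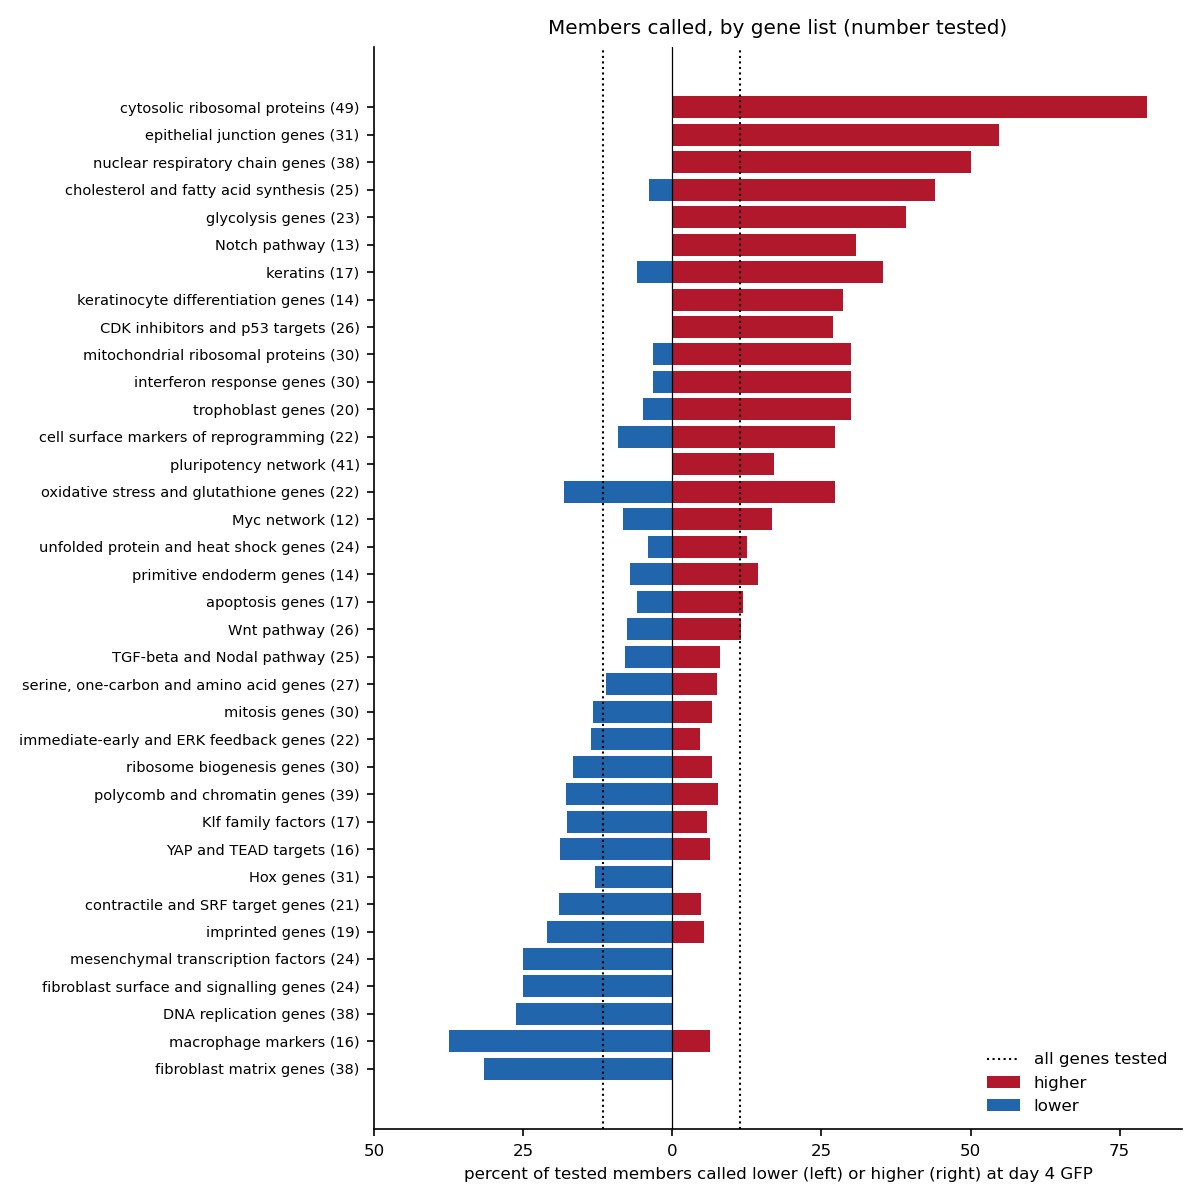
Bars give, for each gene list with at least 10 tested members and at least 3 called, the percent of tested members called lower (blue, left) and higher (red, right) at day 4 GFP. The dotted lines mark the shares over all genes tested, 11.6% lower and 11.4% higher; cytosolic ribosomal proteins reached 79.6% higher and fibroblast matrix genes 31.6% lower.

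Signalling lists are read against the 11.4% higher and 11.6% lower of all genes. In the TGF-beta and Nodal list, 2 of 25 tested genes rose and 2 fell (8% each). Tgfbr2, the type II receptor for TGF-beta, fell from 30 and 56.5 CPM to 13.9 and 16 CPM (-1.53 ± 0.35, edgeR adjusted p = 0.01606), while the activin receptor genes Acvr1b and Acvr2b rose by 1.21 ± 0.30 and 1.58 ± 0.39 on the log2 scale (edgeR adjusted p = 0.02207 and 0.02135). In the BMP list 2 of 20 fell (10%), and in the YAP and TEAD list 3 of 16 fell (18.8%) and 1 rose. Yap1 itself, the coactivator of the Hippo pathway, fell from 121 and 128 CPM to 62.8 and 61.2 CPM (-1.01 ± 0.29, edgeR adjusted p = 0.03449). Among 22 immediate-early and ERK feedback genes, the stress factor Atf3 rose from 27.4 and 9.11 CPM to 130 and 90.9 CPM (2.60 ± 0.63, edgeR adjusted p = 0.01979), and the ERK inhibitors Spry2, Spry4 and Spred1 fell (13.6% lower). Of 13 tested Notch pathway genes 4 rose (30.8%), the receptors Notch1 and Notch3, the ligand Dll3 and the target Hes6. Of 26 tested Wnt pathway genes 3 rose (11.5%) and 2 fell (7.69%), among them Lef1, a factor at Wnt target genes, which went from 9.23 and 6.89 CPM to 33.9 and 25 CPM (1.87 ± 0.47, edgeR adjusted p = 0.02203), and the ligand Wnt5a, which went from 3.42 and 4.4 CPM to 0.307 and 0.118 CPM (-4.17 ± 0.67, edgeR adjusted p = 0.005855). Among 10 tested FGF ligands and receptors edgeR called 0, with 1 at an unadjusted p under 0.05, and DESeq2 called 1. No gene of the TGF-beta, BMP, YAP, ERK feedback or Notch lists passed without day 2 replicate 2, day 4 GFP replicate 1 or day 4 GFP replicate 3, and at most 1 Wnt gene did.

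Cytosolic ribosomal protein genes rose. All 49 tested had a positive log2 fold change, and 39 (79.6%, against 11.4% of all genes) were called higher, with a median of 1.31. Their transcripts summed to 50930 and 33890 CPM at day 2 and to 110000 and 102300 CPM at day 4 GFP. Rps16, of the small subunit, stood at 802 and 380 CPM at day 2 and at 2141 and 2163 CPM at day 4 GFP (1.86 ± 0.55, edgeR adjusted p = 0.03893). All 49 kept a positive sign in each alternative run, but 1 was called under quantile normalization and none when day 2 replicate 2, day 4 GFP replicate 1 or day 4 GFP replicate 3 was left out. Of 30 tested genes that build ribosomes, 2 rose (6.67%, against 11.4% of all genes) and 5 fell (16.7%, against 11.6%). Rrs1, a ribosome assembly factor, fell from 141 and 153 CPM to 53 and 53.2 CPM (-1.47 ± 0.21, edgeR adjusted p = 0.004464), with each library left out. The assembly list gave 1 higher and 2 lower without day 2 replicate 1, and 0 higher and 1 lower without any one of the other 3 libraries.

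Of 38 tested nuclear-encoded genes of the respiratory chain, 19 (50%, against 11.4% of all genes) rose and 0 fell, with a median of 0.91. Under quantile normalization 9 of them were called. Uqcrc1, a core subunit of complex III, rose from 356 and 296 CPM to 899 and 954 CPM (1.51 ± 0.24, edgeR adjusted p = 0.005776). The 10 tested genes of the mitochondrial genome gave 0 calls in edgeR, with 1 at an unadjusted p under 0.05, and 1 lower in DESeq2. Their median of -0.58 was 1.62, with 4 higher, without day 2 replicate 1 and -1.43, with 2 lower, without day 2 replicate 2. Among 30 mitochondrial ribosomal proteins 9 rose (30%, against 11.4% of all genes) and 1 fell (3.33%, against 11.6%). Of 23 tested glycolysis genes 9 rose (39.1%) and 0 fell, with a median of 0.82. Under quantile normalization 6 were called and the median was 0.15, with 8 members negative. Aldoa, a glycolytic aldolase, rose from 776 and 485 CPM to 1522 and 1765 CPM (1.38 ± 0.28, edgeR adjusted p = 0.01123). The respiratory, mitochondrial ribosomal and glycolysis lists gave 0 called without day 2 replicate 2, and at most 1 each without day 4 GFP replicate 1 or 3. The mitochondrial ribosomal list gave 3 higher without day 2 replicate 1.

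Sterol synthesis genes rose, 11 of 25 tested in the cholesterol and fatty acid list (44%, against 11.4% of all genes), with 1 lower (4%, against 11.6%). Dhcr7, which makes the last step to cholesterol, rose 5.62-fold from 81.7 and 43.9 CPM to 372 and 334 CPM (2.49 ± 0.43, edgeR adjusted p = 0.006834). Insig1, a sterol sensor that is itself a target of SREBP factors, rose from 40.2 and 16.4 CPM to 147 and 109 CPM (2.18 ± 0.39, edgeR adjusted p = 0.007466). Fdft1, squalene synthase, rose from 64.9 and 38.8 CPM to 198 and 222 CPM (2.02 ± 0.30, edgeR adjusted p = 0.004638). The day 4 GFP libraries were above both day 2 libraries in all 3, as in every gene called higher. Day 2 replicate 2 was the lowest in all 3. The list's count was 3 without day 2 replicate 2, 5 without day 4 GFP replicate 1 and 4 without day 4 GFP replicate 3. Fasn and Acaca, the main enzymes of fatty acid synthesis, did not pass, with log2 fold changes of 0.36 ± 0.30 and 0.34 ± 0.24.

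**Figure D4:**
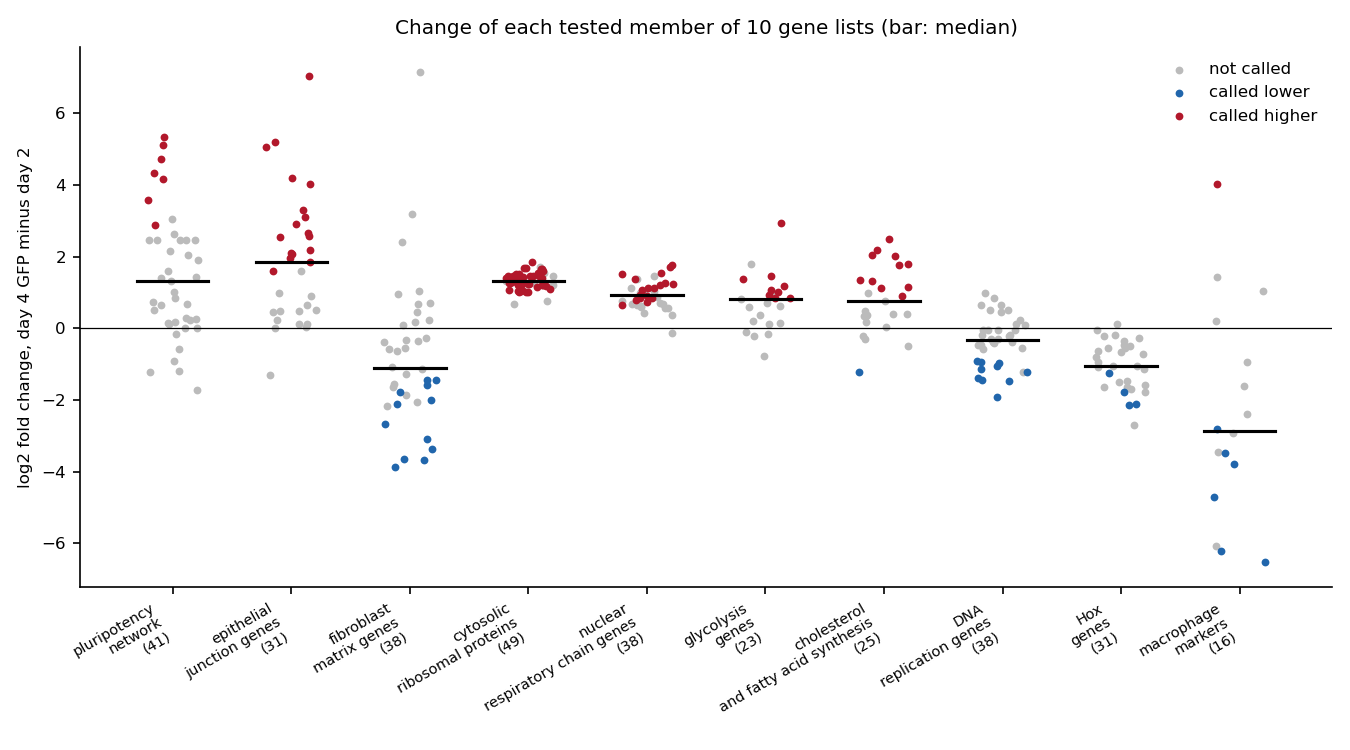
Each point is a tested member of one of 10 gene lists (number tested in brackets), with its log2 fold change, day 4 GFP minus day 2, on the y axis, coloured by whether it was called; the black bar is the list's median. The ribosomal protein points all lie above 0, around a median of 1.31, and the fibroblast matrix points lie around -1.10, a median that was -0.37 without day 2 replicate 2.

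Genes of oxidative stress and glutathione changed in both directions, with 6 of 22 tested higher (27.3%, against 11.4% of all genes) and 4 lower (18.2%, against 11.6%). Nqo1, Srxn1, Txnrd1 and Gclc fell, and Sod1, Gpx1, Gpx2, Gpx4, Mt1 and Mt2 rose. Nqo1, a quinone reductase, fell 21.4-fold from 14.7 and 31.9 CPM to 0.799 and 1.36 CPM (-4.42 ± 0.66, edgeR adjusted p = 0.004613), with each library left out, and stood at 6.91 and 9.5 CPM at day 8. Srxn1, sulfiredoxin, fell from 26.5 and 60.2 CPM to 3.69 and 9.58 CPM (-2.70 ± 0.54, edgeR adjusted p = 0.01116). Slc7a11, the cystine transporter, listed with the amino acid genes, fell from 28.9 and 9.69 CPM to 1.66 and 1.6 CPM (-3.56 ± 0.69, edgeR adjusted p = 0.009696). Gpx2 and Gpx4, which are glutathione peroxidases, rose by 3.68 ± 0.57 and 1.63 ± 0.28 on the log2 scale (edgeR adjusted p = 0.006218 and 0.006809). The list gave 0 higher and 1 lower, 2 and 1, and 3 and 2 without day 2 replicate 2, day 4 GFP replicate 1 and day 4 GFP replicate 3. The Srxn1 window (RefSeq, GRCm38.p6) is shown for its AP-1 letters, in capitals, 102 and 45 bases before the start.
Srxn1, chr2:152105274-152105573, plus strand: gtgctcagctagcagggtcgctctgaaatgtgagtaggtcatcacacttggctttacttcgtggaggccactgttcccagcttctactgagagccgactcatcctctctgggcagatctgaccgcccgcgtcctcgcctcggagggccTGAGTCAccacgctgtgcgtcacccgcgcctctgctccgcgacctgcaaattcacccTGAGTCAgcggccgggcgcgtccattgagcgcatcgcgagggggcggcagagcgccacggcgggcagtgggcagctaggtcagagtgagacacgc
AP-1 letters were in 5.43% of all windows searched.

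Of 26 tested CDK inhibitors and p53 targets, 7 rose (26.9%, against 11.4% of all genes) and 0 fell. The 7 were the CDK inhibitors Cdkn1a, Cdkn2a and Cdkn2b and the p53 or stress targets Bbc3, Gdf15, Phlda3 and Gadd45b. Cdkn1a, which encodes the inhibitor p21, stood at 584 and 512 CPM at day 2 and at 1254 and 1304 CPM at day 4 GFP (1.22 ± 0.30, edgeR adjusted p = 0.0217), and at 541 and 438 CPM at day 8. Cdkn2a, the locus of p16 and Arf, rose from 19.08 and 20.36 CPM to 55.1 and 40.5 CPM (1.28 ± 0.26, edgeR adjusted p = 0.01201). Bbc3, the p53-induced death gene Puma, rose from 32.5 and 25.5 CPM to 120 and 100.2 CPM (1.93 ± 0.47, edgeR adjusted p = 0.02112). Neither Cdkn1a nor Bbc3 passed with any library left out. Of 38 tested replication genes 10 fell (26.3%, against 11.6% of all genes) and 0 rose. Ccne2, an S-phase cyclin, fell from 49.8 and 58.3 CPM to 13.3 and 15.3 CPM (-1.92 ± 0.37, edgeR adjusted p = 0.009951). Mitosis genes gave 4 lower (13.3%, near the 11.6% of all genes) and 2 higher (6.67%, against 11.4%) of 30. Kif11 (a spindle motor) fell by 1.85 ± 0.28 and Cdc20 (an activator of the anaphase ligase) rose by 1.38 ± 0.33 on the log2 scale (edgeR adjusted p = 0.004901 and 0.01913). The CDK inhibitors and p53 targets called higher and the replication genes called lower numbered 0 and 0 without day 2 replicate 2, 2 and 3 without day 4 GFP replicate 1, 3 and 0 without day 4 GFP replicate 3, and 4 and 9 without day 2 replicate 1. Mitosis genes lower numbered 1, 2 and 1, with 0 higher, without day 2 replicate 2, day 4 GFP replicate 1 and day 4 GFP replicate 3.

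Chromatin genes gave 3 higher (7.69%) and 7 lower (17.9%) of 39 tested, against 11.4% and 11.6% of all genes, and the DNA methylation and Tet list 1 higher and 1 lower of 13. Setdb1, a histone H3 lysine 9 methyltransferase, fell from 68.7 and 76.5 CPM to 20.4 and 18.5 CPM (-1.90 ± 0.25, edgeR adjusted p = 0.003435), with each library left out. Hells, a remodeller that DNA methylation needs, fell from 140 and 181 CPM to 42.5 and 42.2 CPM (-1.93 ± 0.27, edgeR adjusted p = 0.004008), likewise with each library left out. Tet2, an oxidase of 5-methylcytosine, rose from 8.77 and 8.85 CPM to 23.5 and 29.3 CPM (1.58 ± 0.42, edgeR adjusted p = 0.02784) and did not pass with any library left out. Of 31 tested Hox genes, which record position along the body, 30 had a negative log2 fold change and 4 were called lower, with 0 higher (12.9% lower, near the 11.6% of all genes). Imprinted genes gave 4 lower (21.1%) and 1 higher (5.26%) of 19. Plagl1, an imprinted zinc finger factor, fell from 48.8 and 110 CPM to 8.3 and 7.69 CPM (-3.31 ± 0.46, edgeR adjusted p = 0.003823). Genes with a Zfp symbol, a list chosen after values were seen, gave 109 lower (32.2%) and 6 higher of 339 tested, with a median of -0.99. The Zfp genes lower numbered 17, 19 and 30 without day 2 replicate 2, day 4 GFP replicate 1 and day 4 GFP replicate 3. In the same order the chromatin genes lower numbered 1, 2 and 1, the imprinted genes lower 1, 3 and 1, and the Hox genes lower 0 in each. The chromatin list gave 1 higher and 4 lower without day 2 replicate 1.

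Of 20 tested trophoblast genes 6 rose (30%, against 11.4% of all genes) and 1 fell, while 10 had a positive and 10 a negative log2 fold change and the median was near 0 (-0.06, 0.00 with bounds for members at 0 counts, and 0.02 under DESeq2). Esx1, a homeobox gene of the placenta, rose from 0.408 and 0.267 CPM to 10.3 and 26.3 CPM (5.75 ± 0.58, edgeR adjusted p = 0.00294). Hand1, a factor of trophoblast giant cells and of heart, rose from 37.4 and 73.2 CPM to 200.2 and 294 CPM (2.16 ± 0.55, edgeR adjusted p = 0.02415), and stood at 34.7 and 25 CPM at day 8. Gata3 and Tfap2c, other trophoblast regulators, did not pass, at -0.41 ± 0.96 and 0.36 ± 0.70. Lists of other lineages lay nearer the background, with 2 of 14 primitive endoderm genes (14.3%) and 2 of 12 neuron markers (16.7%) higher. Gata4, a factor of primitive endoderm, rose from 4.59 and 3.16 CPM to 20.1 and 28.2 CPM (2.64 ± 0.64, edgeR adjusted p = 0.02047). Mapt, the neuronal microtubule protein tau, rose from 3.37 and 2.89 CPM to 15.2 and 20.1 CPM (5.64-fold, edgeR adjusted p = 0.00294), with each library left out. Interferon response genes gave 9 higher (30%) and 1 lower of 30 tested. Bst2, the antiviral tetherin, rose from 55.7 and 13.1 CPM to 183 and 254 CPM (2.67 ± 0.64, edgeR adjusted p = 0.01898). The trophoblast count higher was 1, 3 and 2, and the interferon count 0, 4 and 0, without day 2 replicate 2, day 4 GFP replicate 1 and day 4 GFP replicate 3. Neither Hand1 nor Gata4 passed when any 1 library was left out.

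The remaining lists are read against the same 11.4% higher and 11.6% lower of all genes. Of 17 tested Klf family genes 1 rose (5.88%) and 3 fell (17.6%), among them Klf12, a repressor, which fell from 35.2 and 42.3 CPM to 8.54 and 10.2 CPM (-2.05 ± 0.32, edgeR adjusted p = 0.00537) with each library left out. Of 11 Sox family genes 1 rose, and of 12 genes of the Myc network 2 rose (16.7%) and 1 fell (8.33%). Mxd1, which competes with Myc for its partner Max, rose from 2.55 and 2.36 CPM to 16.8 and 12.1 CPM (2.55 ± 0.41, edgeR adjusted p = 0.005773), while Max fell from 98 and 92.6 CPM to 51.9 and 58.5 CPM (-0.79 ± 0.20, edgeR adjusted p = 0.02314). Surface markers used to stage reprogramming gave 6 higher (27.3%) and 2 lower (9.09%) of 22, with Icam1 rising from 0.714 and 1.73 CPM to 3.75 and 4.85 CPM (1.80 ± 0.53, edgeR adjusted p = 0.03734). Amino acid and one-carbon genes gave 2 higher and 3 lower of 27, unfolded protein and heat shock genes 3 and 1 of 24, hypoxia targets 1 and 1 of 14, and apoptosis genes 2 and 1 of 17. Piwil2, a germline Argonaute protein, was the only one of 10 tested germline genes to rise, from 0.51 and 1.07 CPM to 3.5 and 3.19 CPM (2.06 ± 0.38, edgeR adjusted p = 0.008498). Neural progenitor markers gave 1 higher and 1 lower of 9, neuron markers 2 higher of 12, and primitive endoderm genes 2 higher and 1 lower of 14. Of 4 tested mesendoderm genes and 1 gene of the 2-cell embryo, edgeR and DESeq2 called 0, with 0 and 1 at an unadjusted p under 0.05. Each list of this paragraph gave at most 1 gene called without day 2 replicate 2.

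The 15 largest rises had log2 fold changes between 4.48 and 7.69, and several are known from blood or muscle. Padi4, a peptidylarginine deiminase best known in granulocytes, stood at 1.43 and 0.178 CPM at day 2 and at 55.1 and 270 CPM at day 4 GFP (7.69 ± 1.08, edgeR adjusted p = 0.004046), and at 187 and 164 CPM at day 8. Fermt3, the kindlin of blood cells, rose from 8.88 and 4.98 CPM to 152 and 217 CPM (4.74 ± 0.41, edgeR adjusted p = 0.002544). Arhgap30 and Hmha1, which regulate small GTPases, rose by 6.17 ± 0.77 and 4.95 ± 0.76 on the log2 scale, and Aim2, a sensor of cytosolic DNA, by 5.24 ± 0.61 (edgeR adjusted p = 0.003212, 0.005053 and 0.00294). Slc13a3, a dicarboxylate transporter, rose from 0.204 and 0.0445 CPM to 9.1 and 21.2 CPM and was back at 0.107 and 0.189 CPM at day 8. It met the filter on low counts only through the day 4 GFP libraries, where it was high. Its call is therefore given as a description and not as support. Ttn, the sarcomere protein titin, stood at 0.204 and 0.533 CPM at day 2 and rested on day 4 GFP replicate 3, with 1.54 CPM in day 4 GFP replicate 1 and 44.6 CPM in replicate 3, and a log2 fold change of 5.92 that was 2.04 and not called without replicate 3. The calcium pump gene Atp2a3, the cardiac myosin-binding protein gene Mybpc3 and the synaptic vesicle gene Syngr3 were also among the 15, as were Esx1, Pou5f1, Crb3 and Lgals7. Of the genes named here, all but Slc13a3 and Ttn passed with each library left out, and Slc13a3 was below the filter on low counts when a day 4 GFP library was left out.

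Markers of other cell types were measured beside these rises. Of 18 macrophage markers 16 were tested. Of these, 6 were lower (37.5%, against 11.6% of all genes) and 1 higher (6.25%, against 11.4%). A fit of the 4 libraries alone tested 7, with 2 lower, 1 higher and a median log2 fold change of 0.20. The list summed to 36.5 and 20.7 CPM at day 2 and to 29.9 and 70.7 CPM at day 4 GFP. The defining markers C1qa, C1qc and Tyrobp held 20, 25 and 18 counts over both day 2 libraries and 0 counts in both day 4 GFP libraries. Adgre1 held 38 counts over the day 2 libraries and was at 0 and 0.118 CPM at day 4 GFP. The one that rose was Laptm5, a lysosomal protein of blood cells, from 1.94 and 2.09 CPM to 16.8 and 49.1 CPM (4.03 ± 0.55, edgeR adjusted p = 0.003659). The macrophage genes lower numbered 1 without either day 2 library and 0 without either day 4 GFP library. Of 10 blood cell markers found, 4 were tested, 0 were called by edgeR or DESeq2 and 0 had an unadjusted p under 0.05, and the sum was at most 5.21 CPM in any of the 4 libraries. Of 18 muscle markers 8 were tested, with 0 called by edgeR, 2 at an unadjusted p under 0.05 and 1 called by DESeq2, and the sum was 9.74 and 14.4 CPM at day 2 and 15.9 and 34.2 CPM at day 4 GFP. Of 14 endothelial markers 9 were tested and 1 rose (11.1%, near the 11.4% of all genes), with sums between 42.6 and 52.2 CPM in the 4 libraries. The part of such cells in the rises was not tested.

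The 15 largest falls had log2 fold changes between -3.67 and -5.02, and several were seen at day 4 GFP and not at the later days. Mat2a, which makes the methyl donor S-adenosylmethionine, stood at 285 and 390 CPM at day 2, at 20.3 and 21.5 CPM at day 4 GFP, and at 287 and 306 CPM at day 8. Its log2 fold change of -4.01 ± 0.25 was a 16.2-fold fall (edgeR adjusted p = 0.0004318) and passed with each library left out. Exoc8, of the exocyst complex, stood at 13.3 and 24.6 CPM, then 0.43 and 1.06 CPM, then 15 and 16.6 CPM at the same days. Tbcc, a tubulin folding cofactor, stood at 12.1 and 10.1 CPM, then 0.922 and 0.769 CPM, then 15.5 and 15.9 CPM. Ccdc116 and Zfp719 showed the same dip, with 0.738 and 0.828 CPM and 0.615 and 1.18 CPM at day 4 GFP and between 6.48 and 12.4 CPM at day 8. Pdpn (podoplanin), Msrb3 (a methionine sulfoxide reductase), Efemp1 (a fibulin) and Fbln5 stayed below 2 CPM at day 8. Neat1, a nuclear long RNA, fell from 51.4 and 193 CPM to 7.81 and 3.96 CPM (-4.37 ± 0.76, edgeR adjusted p = 0.007199). Peg12, Krt6a, Nes, Nqo1 and Acta2 were the other genes among the 15. Transcripts that can report on RNA handling moved as well. Rn7sk, a small nuclear RNA without a poly(A) tail, stood at 0.408 and 0.267 CPM at day 2 and at 3.44 and 14.4 CPM at day 4 GFP (4.70 ± 0.89, edgeR adjusted p = 0.008998), and the histone gene Hist1h2bc rose by 2.62 ± 0.56 on the log2 scale (edgeR adjusted p = 0.0137). In that list of 8 tested genes 3 rose (37.5%, against 11.4% of all genes) and 1 fell (12.5%, against 11.6%). With either day 4 GFP library left out, 7 of them were tested, so those fits could not check every member. The part of RNA handling in these changes was not tested.

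The same days in neural progenitor cells (NPCs) carrying the same factors gave a second comparison, from 2 libraries at day 2 and 2 at day 4, none labelled GFP. The titles were followed for the NPC days, although the stage labels of those samples name an earlier day. The column headings of the NPC day 4 libraries add the words feeder for replicate 1 and nofeeder for replicate 2, and Col1a1 stood at 845 and 54.5 CPM in them. In a joint fit of 20 libraries with 15811 genes tested, 421 genes (2.66%) were higher and 214 (1.35%) lower in NPC-derived cells, 4.02% in all. In MEF-derived cells 1721 (10.9%) were higher and 1793 (11.3%) lower, 22.2% in all. The difference between the 2 changes was tested for each gene. It passed for 1 gene in edgeR (0.00632%), with 2277 at an unadjusted p under 0.05 and 336 called by DESeq2. That gene was Ikbke, a kinase of innate immune signalling. It stood at 4.47 and 4.12 CPM at MEF day 2, 0.833 and 0.936 CPM at MEF day 4 GFP, 1.37 and 1.7 CPM at NPC day 2 and 3.56 and 4.95 CPM at NPC day 4. Its change was -2.27 ± 0.37 in MEF-derived and 1.47 ± 0.35 in NPC-derived cells, a difference of -3.74 ± 0.51 (edgeR adjusted p = 0.03977). It did not pass in 5 of the 8 fits that left out 1 library, nor in a fit of the 8 libraries alone (edgeR adjusted p = 0.2421).

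The difference did not pass in edgeR for the other named genes. Epcam changed by 3.29 ± 0.42 in MEF-derived and by 2.45 ± 0.40 in NPC-derived cells, a difference of 0.84 ± 0.54 (edgeR adjusted p = 0.4692). Fermt3 differed by 1.08 ± 0.57 and Hand1 by 0.14 ± 0.68, both short of the test (edgeR adjusted p = 0.3889 and 0.9498). Krt7, a simple epithelial keratin, changed by 3.46 in MEF-derived and by 6.04 in NPC-derived cells, a difference of -2.58 ± 1.25 (edgeR adjusted p = 0.3585). Pou5f1 changed by 5.33 ± 0.63 against 1.94 ± 0.59, a difference of 3.39 ± 0.84 with an edgeR adjusted p of 0.1903 and a DESeq2 adjusted p of 0.005035. Nanog stood at 6.79 and 6.58 CPM at NPC day 2 and at 2.09 and 13.9 CPM at NPC day 4, and its difference was 4.85 ± 1.08 (edgeR adjusted p = 0.1808, DESeq2 0.002537). Nqo1 changed by -4.43 ± 0.66 against -0.01 ± 0.54, a difference of -4.41 ± 0.84 (edgeR adjusted p = 0.1487, DESeq2 0.000262). Col1a1 changed by -2.69 ± 0.85 against 2.53 ± 0.85 (edgeR adjusted p of the difference 0.1861, DESeq2 0.001052). The part of feeder cells in the Col1a1 value was not tested. Mat2a also fell in NPC-derived cells, from 236 and 430 CPM to 46.3 and 143 CPM, and its difference of -2.21 ± 0.62 had an edgeR adjusted p of 0.1909 and a DESeq2 adjusted p of 0.03981.

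**Figure D5:**
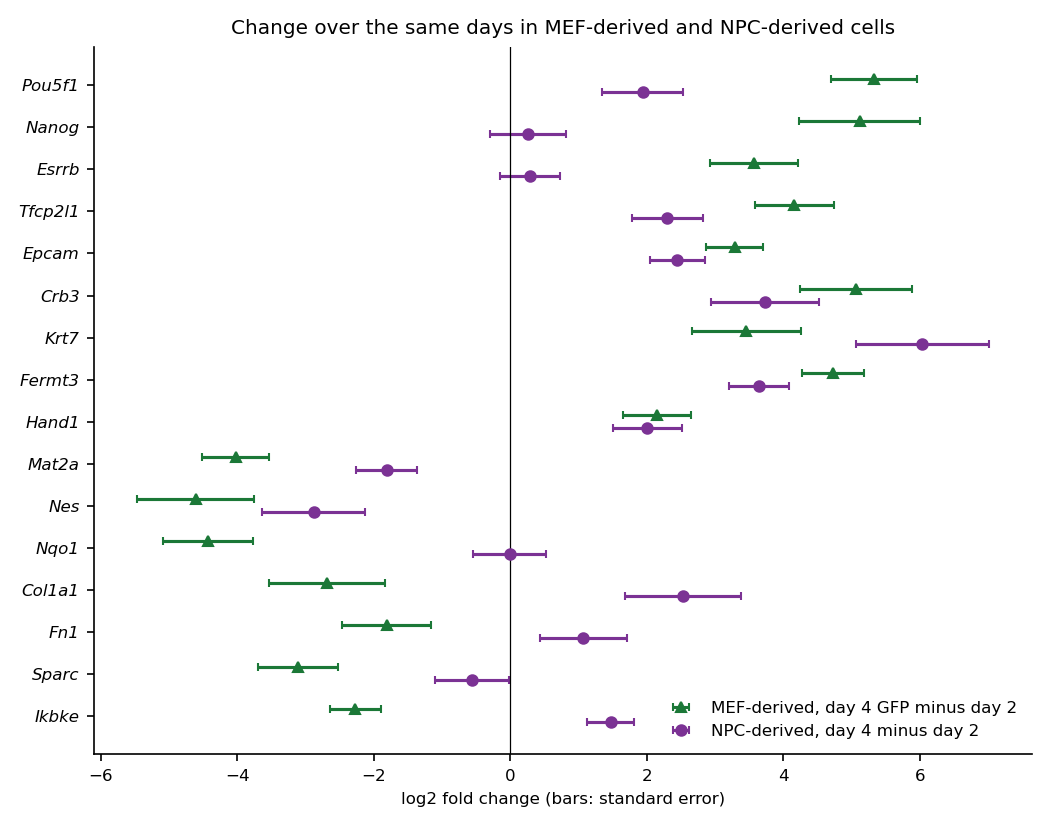
Points give the log2 fold change over the same days in MEF-derived cells (green triangles, day 4 GFP minus day 2) and NPC-derived cells (purple circles, day 4 minus day 2) from the joint fit, with standard errors as bars. Epcam, Crb3, Fermt3 and Hand1 lie above 0 in both, Nqo1 lies at -4.43 and -0.01, and Ikbke lies at -2.27 and 1.47.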

How the data were processed

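Total RNA libraries of the MEF and NPC courses were sequenced by the authors. FastQC, STAR 2.5.1b and the genome build mm9 are named in the submitters' processing notes. How reads were counted, and whether strand was used, is not given in the sources used here, so overlapping and antisense genes cannot be told apart. The deposited tables hold whole-number counts per Ensembl gene, though their name calls them normalized, and sum to between 15902838 and 20102260 per library. They also hold the authors' log2 fold changes and p-values. Of 37999 lines, 37620 genes were kept, since 307 genes were listed more than once and the first line of each was used. The 27 symbols that had turned into dates were replaced by RefSeq symbols through their Entrez IDs. Of the per-sample columns, 2 in the MEF and 2 in the NPC table were not used. Genes without a symbol held 0.6 to 1.41% of the counts. Peak files of the series are not analysed here.

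From the deposited counts, edgeR 4.0.16 (TMM factors, glmQLFit, glmQLFTest, Benjamini-Hochberg) was fitted in R 4.3.3 to the 10 MEF libraries, 5 groups of 2, without covariates, on genes with at least 1 CPM in at least 2 libraries, and to 20 libraries for the difference of changes. Genes were called at an adjusted p under 0.05. CPM values use TMM library sizes, and each SE was derived from the log2 fold change and its F statistic. Where a group holds few counts, such an SE can understate counting error. The scripts were tested on simulated data. Intervals (95%) and floors (3 counts over a group) cover counting error only. Counts of replicates differed far beyond sampling noise (chi-square per degree of freedom 95.8 at day 2 and 24 at day 4 GFP), so none was a copy. Named are 34 core genes, in each list up to 4 called members of largest change with a mean of at least 2 CPM, the 15 largest rises and falls with a mean of at least 5 CPM, and the largest differences between courses. Further list members were chosen after their values were seen. The members and lists were chosen with earlier results of these data known. Alternatives were other normalizations and filters, DESeq2 1.42.0, limma 3.58.1 (voom), fewer libraries, a minimum fold change, and each library left out. A few genes that the rule names are not reported here.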

Additional observations from a re-analysis of the deposited data

Results flagged for a closer look

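Ikbke is listed because its change differed between the MEF-derived and the NPC-derived cells over the same days in a test of the difference itself. The difference of log2 changes was -3.74 ± 0.51 (edgeR adjusted p = 0.03977, lower in 2 of 2 MEF day 4 GFP libraries and higher in 2 of 2 NPC day 4 libraries than in the day 2 libraries of the same course). Over the alternatives it stayed between -3.48 and -3.96, with adjusted p between 7.04e-08 (DESeq2) and 0.3448 (without MEF day 4 GFP replicate 3). The labels name GFP for MEF day 4 and not for NPC day 4, and the part of that selection in this result was not tested.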

How the results depend on the processing

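All 174 named genes that were called kept their direction under each alternative in which they were tested, and 38 passed with each library left out. With 1 library left out, the genes called ranged from 418 to 2706 (160 to 1307 higher, 258 to 1399 lower) against 3360, fewest without day 2 replicate 2. List members called ranged from 43 to 270 (20 to 188 higher, 12 to 82 lower) against 296. A minimum log2 fold change of 1 gave 408 genes (205 higher, 203 lower) and 46 list members (27 higher, 19 lower), by construction a stricter test. No filter on low counts gave 172 list members lower. The other normalizations, filters, DESeq2 and the fit of 4 libraries stayed within 1.5 times. The difference between courses was called for 336 genes by DESeq2 (86 higher, 250 lower), 410 without a filter (81 higher, 329 lower), 0 in the 8 libraries alone (0 lower), and 0 to 138 with 1 library left out (0 to 6 higher, 0 to 134 lower), most without NPC day 4 replicate 2; the cause was not tested. Signs turned only for genes that were not called. Under quantile normalization Sox2, Klf4 and Myc stood at -0.24, -0.48 and -0.69. With 1 library left out, Myc ranged from -0.09 to 0.23, Gata3 from -0.79 to 0.11, Tfap2c from -0.43 to 2.19, Thy1 from -0.31 to 1.02, Cd44 from -0.30 to 0.02, Dnmt3b from -0.20 to 0.30 and Zfp42 from -1.06 to 0.21. No paired analysis was possible because the groups compared share only replicate number 1. Shares of genes near day 2 Sox2, Klf4 or H3K27ac peaks and their alternatives were not run, since gene positions in mm9 were not used here.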
